A study of Mus musculus with 8 samples.

Results

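The genes of the somatostatin and growth hormone-releasing axis were measured in the hypothalamus (HT) of adult male mice that had been exposed to maternal separation (MS) or left undisturbed. The set holds 9 genes of the 17314 with a tested probe: the peptide genes *Sst*, *Cort* and *Ghrh*, the somatostatin receptor genes *Sstr1* to *Sstr5*, and *Ghr*, the receptor gene of growth hormone. They were taken by the gene name that the array files give, and every probe with one of these names is shown, which gave 11 of the 55681 probes other than controls. *Sstr1* and *Ghr* had 2 probes each. The genes were chosen by their place in the axis at a time when their MS minus control differences on these same 8 arrays were known. Those differences are therefore given as a description, with their errors and without a test of the set.

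All 8 mice were males of the C3H/Hen strain, and the labels name no transgene or mutant allele. The 4 MS mice were separated from the dam daily from postnatal day (PND) 2 to 14 while the dam underwent chronic unpredictable stress, and the 4 control mice stayed with an undisturbed dam. Pups of both groups were weaned at PND 21, performed an operant task for sweetened milk as adults and were food-deprived before culling. Each array was hybridized with RNA from the dissected HT of 1 mouse, of which 200 ng had been labeled with Cy3. Both the fasting and the operant training were shared by the 2 groups, so neither group is an untrained or a fed mouse. The paper reports more lever presses for the milk, lower adult body weight and higher dark-phase corticosterone in MS than in control males of this strain. It names unequal exposure to palatable food and a possibly unequal effect of fasting as limits. Their part in the differences below was not tested. The control mice were 8.2, 8.4, 8.5 and 6.2 and the MS mice 5.3, 7.1, 7.2 and 7.6, as numbered in the labels, where the meaning of the number before the dot is not given. No such number was found in both groups. If mice with the same number before the dot shared a litter or a cage, they are not independent, and the errors below measure only the spread between these mice.

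Somatostatin and GHRH are the pair of hypothalamic peptides that set the release of growth hormone from the pituitary. Neurons of the periventricular nucleus release somatostatin, which inhibits the growth hormone cells, and neurons of the arcuate nucleus release GHRH, which stimulates them. Growth hormone in turn acts on its receptor in the brain and in the periphery, and cortistatin, a relative of somatostatin, binds the same 5 receptors. Somatostatin is also made by many local inhibitory neurons, in the HT and in neighboring forebrain regions.

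The probes differ in what they read on each transcript, and the sequences of those on which the results turn are shown here 5′ to 3′ as on the arrays. The *Sst* probe has 60 bases, and its first 21 are shown because they hold the end of the coding sequence of the hormone, with the stop codon in capitals. They lie at chr16:23889815-23889835 on the minus strand (build mm9, from the array files). The 2 *Ghr* probes are shown by their first 30 bases because they belong to different transcripts, variant 1 at chr15:3268137-3268166 and variant 2 at chr15:3277573-3277602, both on the minus strand.
Sst probe: aagacattcacatcctgtTAG
Ghr variant 1 probe: atctctttcatgcaggagagacagtgaaaa
Ghr variant 2 probe: cttgtgggcacctgcattcatatgcacata

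The promoter of *Sst* is a textbook target of cAMP signaling through the factor CREB, which binds the palindrome TGACGTCA. This motif was searched as these 8 letters, which read the same on both strands, in the RefSeq promoters of build GRCm38.p6, from 250 bases before to 50 after each listed start. It was present in 588 of 32851 promoters (1.79%). Among the 9 genes, 7 had a promoter in the table, with 10 promoters in all, and 2 of these 10 held the motif, those of *Sst* and *Sstr2*. The 250 bases before the *Sst* start (chr16:23890845-23891094, minus strand) and 30 bases around the motif of *Sstr2* (chr11:113619258-113619287, plus strand) are shown with the motif in capitals. The motif ended 40 bases before the start in *Sst* and 50 bases before it in *Sstr2*. A match of letters does not show that a factor was bound, and binding was not measured.
Sst promoter: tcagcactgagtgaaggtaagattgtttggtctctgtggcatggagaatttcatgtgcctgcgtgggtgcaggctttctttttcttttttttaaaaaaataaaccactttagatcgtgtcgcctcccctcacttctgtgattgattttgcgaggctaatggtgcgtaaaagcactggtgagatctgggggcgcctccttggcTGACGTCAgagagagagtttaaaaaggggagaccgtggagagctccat
Sstr2 promoter: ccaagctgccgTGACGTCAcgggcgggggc

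Levels are given as the log2 of the processed signal over the 75th percentile of the array, so that 0 is that percentile and 1 unit is a doubling. The level of a probe can be compared between mice but not with that of another probe. All 8 arrays lay on 1 slide in 2 rows, each with 2 control and 2 MS mice: control 8.2, control 8.4, MS 5.3 and MS 7.2 in row 1, and the others in row 2. Between 61.2% and 71.1% of the probes of an array were well above background, 0 spots were saturated, and MS 7.6 had the dimmest array, with a 75th percentile of 499 intensity units against 751 to 902 in the other mice. Of all probes, 37314 (67.0%) were well above background on at least 4 arrays and were tested with limma. At an adjusted p under 0.05, 0 of these (0.00%) were called, while 3.40% had an unadjusted p under 0.05 (2.40% with the lower level in MS). Control 6.2 stood apart by its pituitary genes: the summed level of the 8 measured of 10 pituitary markers, in multiples of the 75th percentile, was 298 in this mouse and 20.1 to 38.2 in the other 7. All 8 had MS minus control differences below 0, with a median of -0.72, and 0 were called. This median was -0.29 without control 6.2 and -1.18 without control 8.4, and it was -0.00 in slide row 1 and -1.58 in row 2. MS 7.6 stood apart in the summed level of the 8 meningeal markers, which was 510 in this mouse and 156 to 335 in the others. Most of the 510 came from 1 marker, *Ptgds*, at 8.92. For *Dcn*, *Lum* and *Igf2* the highest mouse was a control, and for the other markers an MS mouse. The median difference of the 8 markers was -0.15. It was -0.51 without MS 7.6, -0.40 without control 8.2 and -0.09 without control 8.4 or MS 5.3. It was 0.01 without control 8.5 or MS 7.2 and 0.00 without MS 7.1. Of the 15 defining genes of the HT, all 15 were measured, with a summed level of 535 to 613 in the control and 431 to 614 in the MS mice. Of these 15, 11 had a difference below 0, with a median of -0.08 that ranged from -0.15 (without MS 7.1) to -0.03 (without control 8.5) with each mouse left out. *Hcrt*, the gene of the arousal peptide orexin, differed by -1.45 (95% interval -2.87 to -0.02), and *Pmch*, the gene of melanin-concentrating hormone, by -0.46 (95% interval -0.77 to -0.16), at 6.53 to 6.76 in the control and 5.97 to 6.56 in the MS mice. Neither was called, and the part of these differences in that of *Sst* was not tested.

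*Sst*, the somatostatin gene, had a slightly lower level in the MS than in the control mice, by an amount that did not pass the adjusted test. In the controls, *Sst* lay at 5.414 in mouse 8.2, 5.510 in 8.4, 5.522 in 8.5 and 5.591 in 6.2. Among the MS mice, it lay at 5.197 in 7.2, 5.282 in 7.6, 5.302 in 7.1 and 5.406 in 5.3. Every control was above every MS mouse, in 16 of 16 pairs, but the gap between the lowest control and the highest MS mouse was only 0.0085. The means were 5.509 ± 0.073 (SD, n = 4) in the control and 5.297 ± 0.086 (SD, n = 4) in the MS group, a difference of -0.21 (SE 0.07, 95% interval -0.36 to -0.06). On the linear scale this is -13.7%, or 1.16-fold higher in the controls, with an interval from -22.3% to -4.14%. *Sst* was the 1 probe of 11 without overlap between groups, against 2.03% of all probes tested and 1.24% in this direction. Because the genes were proposed with this difference known, nothing is read from that count. In bulk tissue, fewer somatostatin cells and less *Sst* RNA per cell cannot be told apart.

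**Figure D1:**
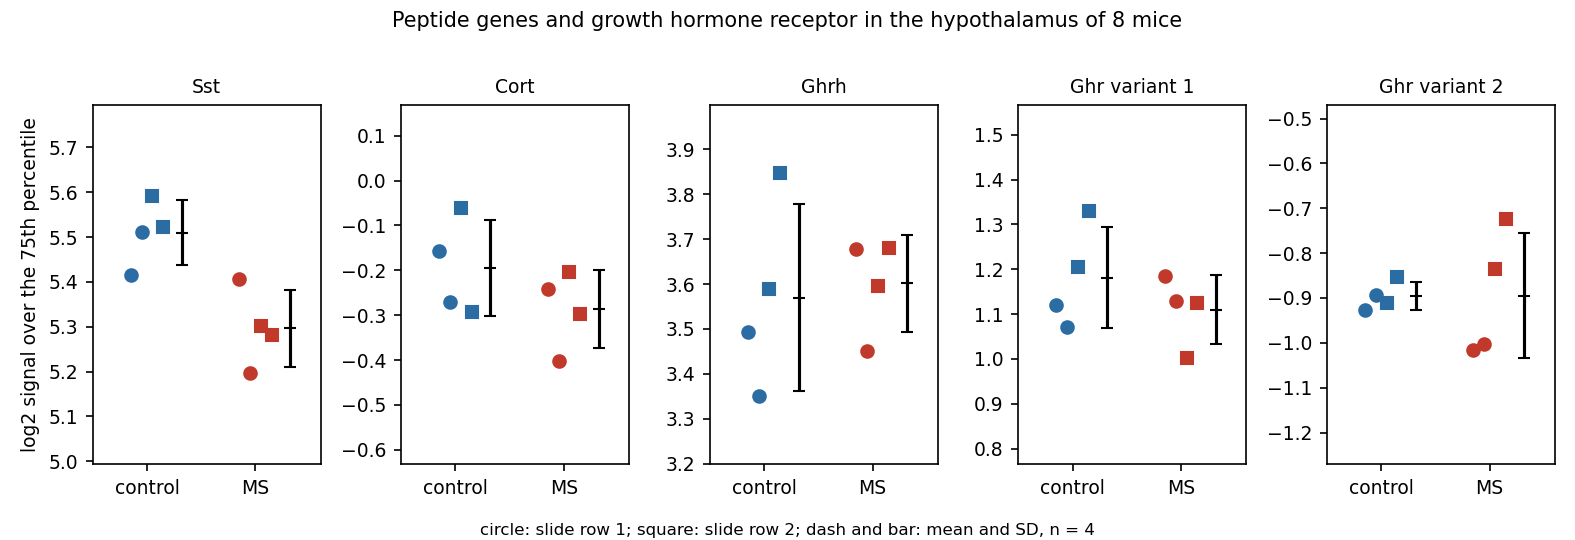
Levels of the peptide genes *Sst*, *Cort* and *Ghrh* and of the 2 *Ghr* probes in 4 control (blue) and 4 MS (red) mice, as log2 signal over the 75th percentile of the array; circles are mice of slide row 1, squares those of row 2, and the dash and bar are the mean and SD. The groups are separate for *Sst*, by 0.0085 between control 8.2 and MS 5.3, and they overlap in the other panels, each of which has its own range of levels.

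The array holds 10 spots of the *Sst* probe, which share 1 RNA, 1 labeling and 1 hybridization, so that their spread covers the noise of spots only. Their SD within an array was 0.0465 on average, so that the mean of 10 spots had an SE of 0.0147. The SD between mice of a group was 0.0796 on average, which also holds the variation of labeling and hybridization, and 17.6% of all probes tested had a smaller one. The other probes of the set have 1 spot per array. The SD of *Sst*, from means of 10 spots, is therefore not fully comparable with theirs. In control 8.2 the spots ranged from 5.34 to 5.51, and in MS 5.3 from 5.32 to 5.46. The spots of these 2 mice overlapped, whereas MS 7.2, with spots between 5.13 and 5.28, lay below every spot of every control.

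**Figure D2:**
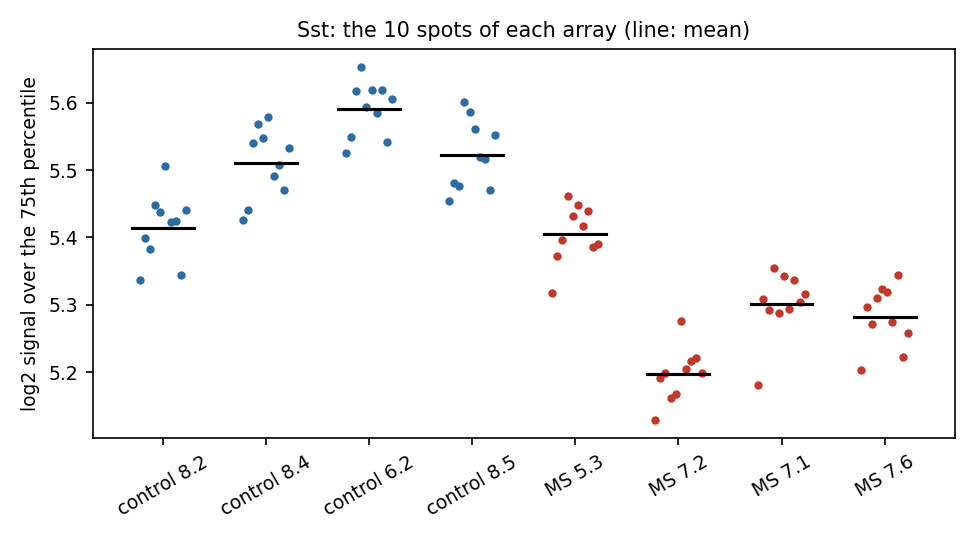
The 10 spots of the *Sst* probe on each of the 8 arrays (points) and their mean (line), as log2 signal over the 75th percentile; controls are blue and MS mice red. The spots of control 8.2 (mean 5.414) and MS 5.3 (mean 5.406) overlap, and those of MS 7.2 (mean 5.197) are the lowest.

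Within slide rows, *Sst* differed by -0.16 in row 1 and by -0.26 in row 2. In the 22 other ways to process the arrays or choose the mice, the difference lay between -0.26 and -0.16. Most of these could not end the separation or change the sign. Leaving out mice keeps both, and changes of filter, block or probe keep the *Sst* levels. Among the settings that gave new levels, the groups overlapped in 4. These were quantile scaling, median scaling, the authors' own table and levels relative to the neuron markers. The groups stayed apart with another background correction (normexp) and with the median of the spots. Without control 6.2, the mouse with the high pituitary genes and also with the highest *Sst*, the difference was -0.19, and without this mouse and MS 7.6 it was -0.18. By the number before the dot, the 3 controls of number 8 lay between 5.414 and 5.522 and the 3 MS mice of number 7 between 5.197 and 5.302. Control 8.2 was closer to MS 5.3 than to the other controls of number 8. Control 6.2 at 5.59 and MS 5.3 at 5.41 were the single mice of their numbers. Since each number occurs in 1 group only, it cannot be told apart from MS.

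**Figure D3:**
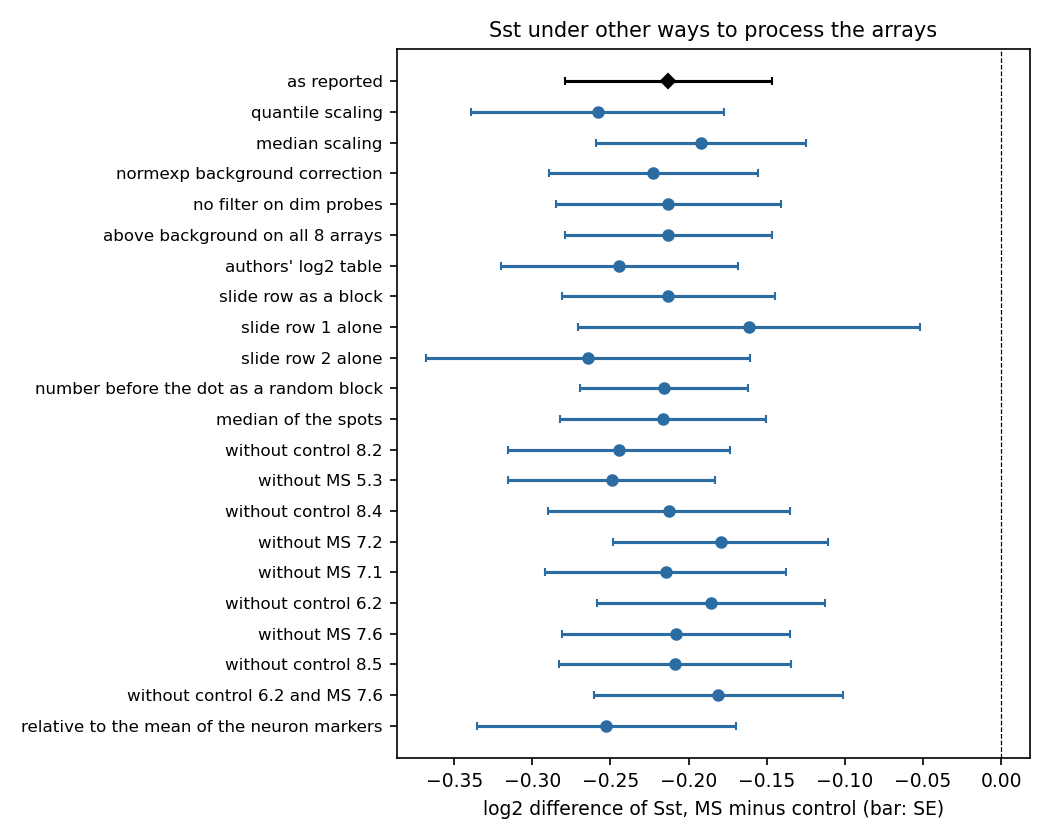
The *Sst* difference between MS and control mice (log2, points) with its SE (bars) as reported and under 21 other settings; the 22nd, 1 probe per gene, gave the same difference. All points lie left of 0, between -0.26 and -0.16.

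*Cort*, which encodes cortistatin, showed no such separation. Its level was -0.16, -0.27, -0.29 and -0.06 in controls 8.2, 8.4, 8.5 and 6.2, and -0.24, -0.20, -0.40 and -0.30 in MS 5.3, 7.1, 7.2 and 7.6. Control 6.2 was the highest and MS 7.2 the lowest, the same mice as for *Sst*, and the other 6 mice overlapped. The difference was -0.09 (SE 0.07, 95% interval -0.26 to 0.08). It was below 0 in all 22 other settings, from -0.13 to -0.04. Some of these settings leave the difference of a probe unchanged, for *Cort* and for the genes below. They are the changes of the filter, the slide row as a block and the brightest probe of each gene. The *Cort* probe lies at chr4:148499300-148499359 (mm9, minus strand).

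The 5 receptors of somatostatin and cortistatin couple to inhibitory G proteins, which lower cAMP, open potassium channels and close calcium channels. Their 6 probes were above background on all 8 arrays, and their differences lay between -0.09 and 0.16, with each interval including 0. *Sstr2*, the receptor most associated with the control of growth hormone, had the highest of the 11 differences. Its level was -2.29, -2.65, -2.66 and -2.59 in controls 8.2, 8.4, 8.5 and 6.2, and -2.28, -2.37, -2.33 and -2.58 in MS 5.3, 7.1, 7.2 and 7.6. Control 8.2 lay among the MS mice, and the other 3 controls lay below all 4 of them, with -2.59 in control 6.2 and -2.58 in MS 7.6 as the closest pair. The difference was 0.16 (SE 0.10, 95% interval -0.08 to 0.40), and it was 0.17 in row 1 and 0.15 in row 2. It stayed above 0 in all 22 other settings, from 0.12 to 0.24, the highest without control 8.2. The signals were low, and in the array files the probe (chr11:113486505-113486903, mm9, plus strand) covers 399 bases for a length of 60, as a probe that spans an intron would.

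*Sstr5*, which is also used by the growth hormone cells of the pituitary, lay at 2.82, 2.93, 2.70 and 2.97 in controls 8.2, 8.4, 8.5 and 6.2, and at 3.10, 2.94, 2.74 and 3.20 in MS 5.3, 7.1, 7.2 and 7.6. The MS mice held both the highest levels and, with MS 7.2, the second lowest of all. The difference was 0.14 (SE 0.11, 95% interval -0.11 to 0.39), above 0 in all 22 other settings, and it was 0.04 in row 1 and 0.24 in row 2. For *Sstr4*, a receptor of the forebrain, the controls lay within a narrow range, -3.16 to -3.11, while the MS mice spread from -3.36 in 7.2 over -3.02 in 7.1 and -2.92 in 5.3 to -2.88 in 7.6. The SD was 0.0197 in the control and 0.219 in the MS group, and 3 of the 4 MS mice lay above all controls. The difference was 0.10 (SE 0.10, 95% interval -0.14 to 0.34), and without MS 7.2 it was 0.20. The signals of *Sstr4* were low, at 67.8 to 107 intensity units.

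*Sstr3*, a receptor located on the primary cilia of neurons, lay at 0.54 to 0.84 in the control and 0.50 to 0.69 in the MS mice, with full overlap and a difference of -0.06 (SE 0.08, 95% interval -0.25 to 0.13). *Sstr1*, a receptor that can also act as an autoreceptor on somatostatin neurons, was read by 2 probes that lie apart on the transcript (chr12:59314287-59314346 and chr12:59316670-59316729, mm9, plus strand). The upstream probe lay between -3.56 and -3.38 in the control and between -3.86 and -3.32 in the MS mice, with a difference of -0.09 (SE 0.12, 95% interval -0.36 to 0.18). The downstream probe lay between 1.46 and 1.71 and between 1.44 and 1.65, with a difference of -0.03 (SE 0.08, 95% interval -0.21 to 0.16). Both probes gave overlapping groups, but they did not order the mice alike: Pearson's r between them was 0.15 and Spearman's rho 0.07 over the 8 mice, given as a description. The upstream probe was dim, at 40 to 80.9 intensity units, against 1567 to 2456 for the downstream one.

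**Figure D4:**
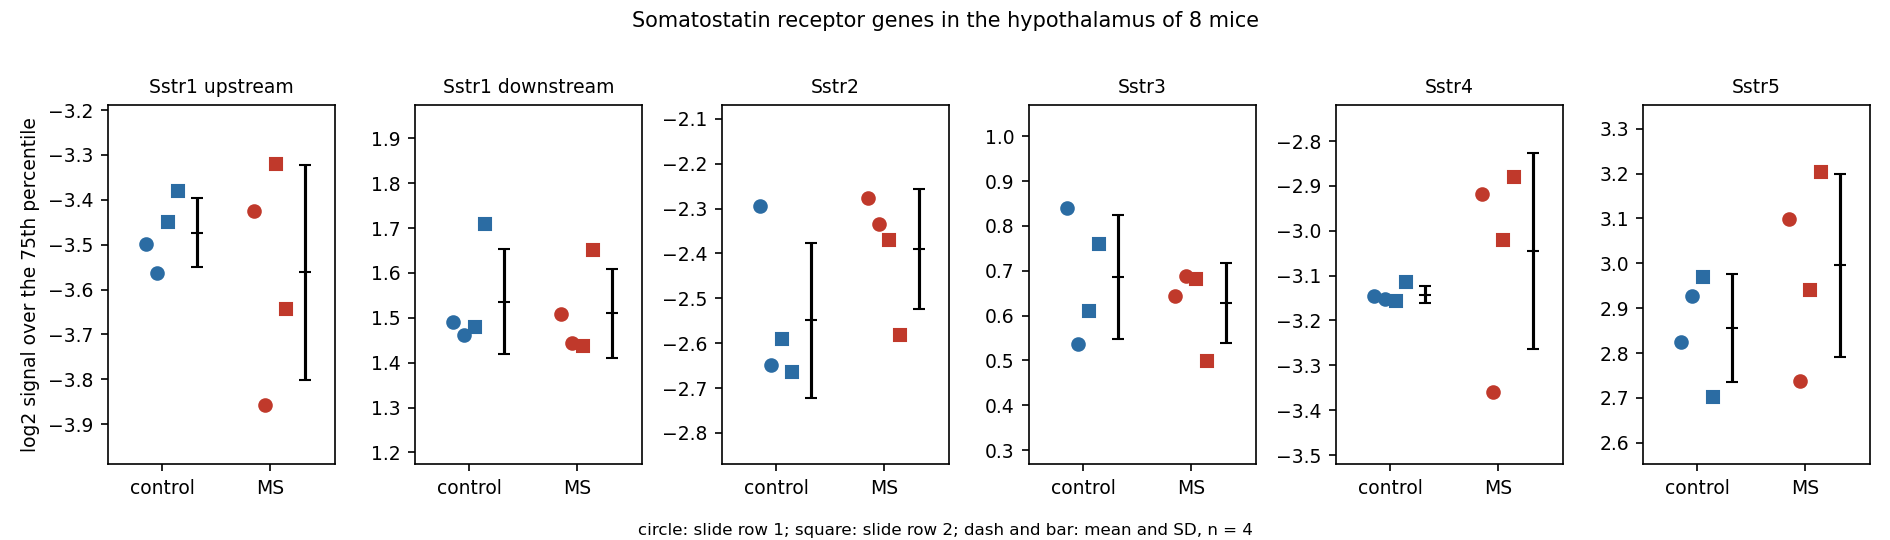
Levels of the 6 probes of *Sstr1* to *Sstr5* in 4 control (blue) and 4 MS (red) mice, as log2 signal over the 75th percentile; circles are row 1, squares row 2, and the dash and bar are the mean and SD. The groups overlap in every panel, and the panel of *Sstr4* shows the controls between -3.16 and -3.11 and the MS mice between -3.36 and -2.88.

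*Ghrh*, which encodes the releasing hormone, did not separate the groups. Its level was 3.49, 3.35, 3.85 and 3.59 in controls 8.2, 8.4, 8.5 and 6.2, and 3.68, 3.596, 3.45 and 3.68 in MS 5.3, 7.1, 7.2 and 7.6. All 4 MS mice lay within the range of the controls, whose SD was 0.209 against 0.108. The difference was 0.03 (SE 0.11, 95% interval -0.22 to 0.28), or from -14.3% to 21.8% on the linear scale. It was 0.14 in row 1 and -0.08 in row 2, and of the 22 other settings 18 gave a value above 0 and 4 below. The probe lies at chr2:157155249-157155308 (mm9, minus strand).

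The 2 transcripts of *Ghr* were measured by the probes shown above, and in mice this gene encodes, by alternative splicing, both the membrane receptor and the soluble growth hormone-binding protein. Variant 1 lay at 1.12, 1.07, 1.33 and 1.21 in controls 8.2, 8.4, 8.5 and 6.2, and at 1.19, 1.003, 1.13 and 1.12 in MS 5.3, 7.1, 7.2 and 7.6. The groups overlapped, with a difference of -0.07 (SE 0.07, 95% interval -0.24 to 0.10) that was 0.06 in row 1 and -0.20 in row 2. Variant 2 lay between -0.93 and -0.85 in the control mice, and at -1.02, -0.84, -1.003 and -0.72 in MS 5.3, 7.1, 7.2 and 7.6. Both MS mice of row 1 were below all controls and both MS mice of row 2 above them, so that the difference was -0.10 in row 1, 0.10 in row 2 and 0.00 over all (SE 0.08, 95% interval -0.17 to 0.18). Between the 2 variants, r was -0.12 and rho -0.29 over the 8 mice.

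**Figure D5:**
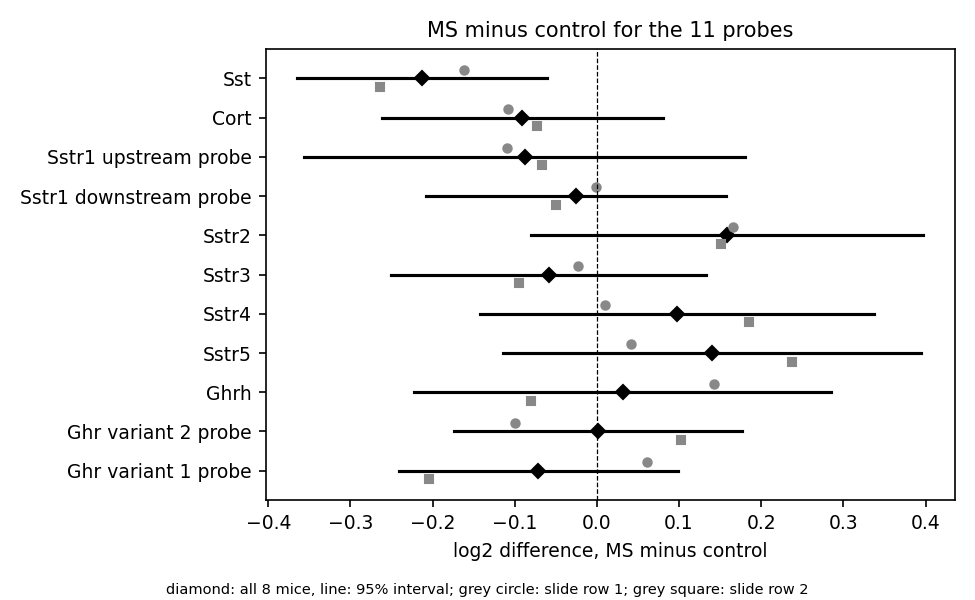
MS minus control for the 11 probes (log2, diamonds) with 95% intervals (lines), and the same within slide row 1 (circles) and row 2 (squares). The interval of *Sst* (-0.36 to -0.06) is the 1 of 11 that does not include 0, against 3.40% of all probes tested. The rows lie on opposite sides of 0 for *Ghrh* and for both *Ghr* probes.

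Across the 11 probes, limma with Benjamini-Hochberg adjustment over all probes called 0. Only *Sst* had an unadjusted p under 0.05, against 3.40% of all probes tested and 2.40% in this direction. As its difference was known when the genes were proposed, nothing is read from this. The median difference of the 11 probes was -0.03, from -0.21 to 0.16, against -0.00 for all probes tested. Of the 11, 5 were above 0, against 49.5% of all probes. All 11 intervals lay within a 1.5-fold change in either direction, so that a larger change lies outside each of them.

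Genes that act beside these 9 were then counted in fixed lists, with the brightest tested probe for each gene. Of 11 partners of the growth hormone axis, 8 were measured and 0 were called, with a median difference of 0.01. *Gh*, growth hormone itself, lay at 7.11 in control 6.2 and between 0.97 and 3.52 in the other 7 mice, and its difference of -0.45 (SE 1.19) was 0.85 without control 6.2. *Prl*, the related hormone prolactin, lay at 6.70 in control 6.2 and between 1.45 and 4.04 in the others, with a difference of -0.23 (SE 1.07), or 0.93 without this mouse. Both are made by the pituitary, and whether the dissected HT of control 6.2 carried pituitary tissue was not tested beyond the marker sums above. The ghrelin receptor gene *Ghsr*, through which ghrelin stimulates growth hormone release, differed by -0.08 (SE 0.09). *Ghrl* itself differed by 0.00 (SE 0.12), and *Mboat4*, whose enzyme acylates ghrelin, by 0.20 (SE 0.25) with 7 arrays above background. *Igf1*, the growth factor induced by growth hormone, differed by 0.10 (SE 0.10), its receptor gene *Igf1r* by 0.04 (SE 0.06) and the prolactin receptor gene *Prlr* by 0.01 (SE 0.08). *Ghrhr*, the GHRH receptor gene, was not tested, as it was above background on 3 arrays only, and *Igfals* and *Pou1f1* were not tested either.

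In the cells that receive growth hormone, its receptor signals through JAK2 and STAT5, and SOCS proteins limit the response. All 17 listed genes of this pathway were measured, 0 were called, 6 were above 0 and 11 below, and the median was -0.01. The range went from -0.26 (SE 0.14) for *Ptpn6*, a phosphatase that dampens cytokine receptors, to 0.33 (SE 0.16) for *Cish*, an inhibitor induced by STAT5. The groups overlapped for *Cish*, at -0.05 to 0.49 in the control and 0.21 to 0.85 in the MS mice. Downstream of the somatostatin receptors, all 21 genes of G proteins, potassium and calcium channels, adenylyl cyclases, kinases and arrestins were measured. Of these, 0 were called, 13 were above 0, and the median was 0.03. *Adcy9*, an adenylyl cyclase, was lowest at -0.07 (SE 0.06), and *Cacna1b*, which encodes the N-type calcium channel, was highest at 0.27 (SE 0.11).

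*Sst* and *Ghrh* are neuropeptides that are cut from prohormones, and the 9 genes of this processing had a median of -0.01 with 0 called. *Cpe*, the carboxypeptidase of the secretory granule, had 0.07 (SE 0.06), and *Chga*, the granule protein chromogranin A, had -0.31 (SE 0.18). Genes that mark GHRH neurons or are needed for their formation (9 measured of 9) were all below 0, with a median of -0.07, and 0 were called. Without MS 7.2 the median was -0.02. The summed level of the list was 52.5 in this mouse and 58.8 to 62.7 in the others. The highest was *Foxo1*, a factor regulated by insulin, at -0.01 (SE 0.07), while *Ghrh* itself was at 0.03. Among 13 measured of 14 genes found in somatostatin neurons, 6 were above 0 and 7 below, the median was -0.02 and 0 were called. The highest was *Npy*, a peptide that many somatostatin neurons of the forebrain share, at 0.19 (SE 0.07). Bulk tissue does not show which cells this RNA came from. The regulators around CREB, 8 measured of 9, had a median of 0.01 with 0 called, between -0.12 (SE 0.09) for *Atf1* and 0.10 (SE 0.08) for *Crem*. In total, the 7 lists held 90 genes, of which 85 were measured, 0 were called and 3 had an unadjusted p under 0.05, against 3.40% of all probes.

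Markers of other tissues and cell types that could move with *Sst* were summed in each mouse. The cortex, hippocampus and amygdala, which also hold somatostatin neurons, had a summed level of 25.0 to 32.6 in the control and 21.1 to 32.9 in the MS mice over 9 measured of 10 markers. Most of this sum came from *Cck*, at 4.44 to 4.86 in the control and 4.15 to 4.88 in the MS mice. The sum therefore says little of the weaker markers. Of the 9, 6 differed above 0 and 3 below, from -0.19 (SE 0.25) for *Tbr1* to 0.97 (SE 0.75) for *Neurod6*. Both were near the background, with *Tbr1* above it on at most 7 arrays and *Neurod6* on at most 6. *Slc17a7*, the defining transporter of cortical excitatory neurons, was not above background on any array. Striatal markers summed to 95.6 to 100.3 in the control and 95.1 to 99.3 in the MS mice, and neuron markers to 367 to 409 and 393 to 429. In these 3 lists the groups overlapped, and their part in the *Sst* difference was not tested, except that relative to the mean of the neuron markers the difference was -0.25. All 13 marker lists together had 126 measured of 129 genes, of which 0 were called and 6 had an unadjusted p under 0.05, against 3.40% of all probes. These were *Hcrt* and *Pmch*, as given above, *Tshb* of the pituitary (-2.19, SE 0.87) and *Pde10a* of the striatum (-0.18, SE 0.07), with differences below 0, and *Gbx2* of the thalamus (0.37, SE 0.13) and *Aqp4* of astrocytes (0.25, SE 0.07), with differences above 0.

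As a description of how the 2 main peptides varied among the mice, the genes whose levels followed theirs most closely were taken from 17308 genes by Pearson's r over the 8 mice. For *Sst* these were *Tk1* (r = 0.94), *Nat8f4* (0.93) and *Foxl1* (0.93), and 14 genes had an r over 0.9. Their differences between MS and control mice were -0.25, -0.16 and -0.84. For *Ghrh* they were *Arhgap36* (r = 0.96), *Ptpro* (0.95) and *Lrfn1* (0.95), among 31 genes with an r over 0.9, and their differences between groups were 0.05, 0.04 and -0.00. No shared function or control is read from these values.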

How the data were processed

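Groups were taken from the labels of the samples. For every array, the authors deposited scanner files in which Agilent Feature Extraction 10.10.1.1 gave each spot an intensity with the background subtracted and gradients removed. They also deposited a table of log2 values, for which the submitters' processing notes name limma. How it was normalized is not stated, and it served as an alternative only. Probe positions in the file headers are those of build mm9.

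From there, R 4.3.3, limma 3.58.1 and data.table (version 1.17.8) were used. Spots of controls or with an outlier mark were not used, the log2 values of a probe were averaged over its spots, and each array was scaled by subtracting its 75th percentile. The fit used probes that were well above background on 4 or more of the 8 arrays, with lmFit and eBayes, two-sided and without covariates, with Benjamini-Hochberg adjustment over all probes and a threshold of 0.05. The steps were tested on simulated data. For the lists, genes were named by a RefSeq table through the accession (27235 probes), the symbol (3581) or an older symbol (565), and 24300 probes had no gene name.

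The 9 genes and all lists were chosen with earlier results of these data known. Named were all probes of the 9 genes, all measured partners of the growth hormone axis, the highest and lowest gene of each other pathway list, the 3 genes most like *Sst* and *Ghrh*, and genes of a marker list where a mouse stood apart. For 2 of the lists, the lowest gene is not reported here. *Slc17a7*, *Cck*, *Tbr1*, *Neurod6*, *Dcn*, *Lum*, *Igf2* and the marker genes with an unadjusted p under 0.05 were named outside this rule. Their values had been seen before they were named. Alternatives changed the scaling, background correction (normexp, offset 50), filter, table, slide row, number before the dot, probe of a gene, spots and mice. The levels relative to neuron markers and the omission of control 6.2 with MS 7.6 were chosen after seeing the data. A planned comparison of the proteins of the 9 genes was not run. The number of arrays limits the precision. The arrays of other regions were not analysed here.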

Additional observations from a re-analysis of the deposited data

Results flagged for a closer look

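Each group of 4 mice was checked at each of the 11 probes for a mouse far from the others, which makes 22 checks, and chance gives about 1 in 20. The check marked 1 value, the downstream *Sstr1* probe in control 8.5. At 1.71 it was the highest control, 0.219 above the next, which is 0.885 of the range of the group. The difference of this probe was -0.03, and 0.03 without control 8.5.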

How the results depend on the processing

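No member of the axis was called under any of the 22 alternatives. Over all probes, the count of calls was 0 as reported and 0 in every setting but slide row 2 alone, which called 1, and a random block for the number before the dot, which called 1, with smallest adjusted p of 0.0392 and 0.0340. The cause was not tested. Without each mouse in turn, the count was 0 to 0 over all probes and 0 to 0 for the 11, their median difference -0.06 to 0.02 and that of *Sst* -0.25 to -0.18. With the random block, the *Sst* difference was -0.22 (limma, adjusted p = 0.444, against 0.989 in the fit as reported). Its SE was 0.054 against 0.066 as reported, and 3370 probes had an unadjusted p under 0.05 against 1270 as reported. The block thus narrowed the errors. Since each number occurs in 1 group only, this fit cannot account for what mice of the same number may share. Signs were the same in all settings run for *Sst*, *Cort*, *Sstr2*, *Sstr3*, *Sstr4* and *Sstr5*, and not for both *Sstr1* probes, *Ghrh* and both *Ghr* probes. Settings that leave a difference unchanged, such as those of the filter, add nothing to this count. No paired analysis was possible because no mouse number is shared by both groups.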
